A study of Homo sapiens with 12 samples.

Results

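Immune checkpoint and evasion genes, which tumour cells use to restrain immune attack, were measured in a glioblastoma line treated with siRNAs against uc.110. The 8 genes are the PD-1 ligand genes CD274 (PD-L1) and PDCD1LG2 (PD-L2), CD276 (B7-H3), CD47, PVR (CD155), NECTIN2 (CD112), IDO1 and NT5E (CD73). Each was taken by its symbol from the protein-coding intervals of the deposited count table, each symbol had 1 interval, and the 8 were measured among 44787 gene intervals used, of which 19181 are protein-coding. All 8 passed the filter on low counts, which left 24902 intervals for testing.

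The cells were A172, an adherent human glioblastoma line labelled wild type, in 3 groups of 4 libraries. The first group received siRNA-1 against uc.110, the second siRNA-2 against uc.110, and the third a scrambled siRNA. uc.110 is an ultraconserved region, a stretch of DNA that is identical in human and rodents. Transfection took 6 h in all groups, with 3 µL of 20 µM siRNA and a lipid carrier, and total RNA was taken on day 2. Both comparisons with the scrambled siRNA use the same 4 scrambled libraries. The labels do not say that the 4 samples of a group were grown apart, and p-values therefore reflect only how far these samples differ, which may be technical variation.

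The 12 libraries held 42741734 to 52901514 counts. The 45S ribosomal RNA intervals took 1.70% to 5.09% of the counts in 10 libraries. They took 15.01% in replicate 3 of siRNA-1 and 8.58% in replicate 2 of siRNA-2. uc.110 itself had 2, 0, 1 and 2 counts with siRNA-1, 3, 0, 4 and 0 with siRNA-2, and 4, 0, 1 and 6 with the scrambled siRNA, so a lower level was not detectable at this depth. Of 11 glioma and glial markers, 9 averaged at least 1 CPM (counts scaled to a common library size), among them VIM, NES, CD44, EGFR and SOX9. S100B had at most 1 count and FABP7 at most 13 counts in any library. Of 11 hematopoietic and microglial markers with a usable interval, 4 averaged at least 1 CPM, and MS4A1 was at 0 in all 12 libraries. Their summed level was 252 to 263 CPM with siRNA-1, 314 to 340 CPM with siRNA-2 and 278 to 308 CPM with the scrambled siRNA. Most of that sum came from CSF1R and CD68, whose intervals overlap other genes. CD68 averaged 74.0 CPM with siRNA-1, 159 CPM with siRNA-2 and 38.6 CPM with the scrambled siRNA. Its part in the results below was not tested.

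The 8 genes act at different steps. PD-L1 and PD-L2 bind PD-1 on T cells and dampen T cell receptor signalling. CD47 binds SIRPA on macrophages and microglia as a signal against phagocytosis. PVR and NECTIN2 are adhesion molecules that bind the activating receptor CD226 and the inhibitory receptor TIGIT on T and natural killer cells. IDO1 breaks tryptophan down to kynurenine, and NT5E makes adenosine from extracellular AMP. Both products suppress T cells. CD274, PDCD1LG2 and IDO1 are textbook targets of interferon signalling, which acts through the GAS and ISRE elements of promoters. Glioblastomas are known for high CD276, PVR and NT5E.

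Promoter windows from RefSeq (GRCh38.p14) each ran from 250 bases before to 50 bases after a gene's start. Those of 6 of the 8 genes were searched, in 7 windows. No window was held for PDCD1LG2, and IDO1 was left out of the search. Whether the promoters of these genes hold the elements below is not reported here. The ISRE core was searched as GAAA, any 2 bases and GAAA, on both strands, and matches that overlap were each counted. CD274 had 2 matches, which overlap each other, and the windows of CD276, CD47, PVR, NECTIN2 and NT5E had none. Of all 35116 windows, 3.57% held the core, against 17 of 25 windows (68.0%) of the interferon response genes described further on. The GAS element, searched as TTCNNNGAA, was found in the CD274 window once, in none of the other windows of these genes, and in 7.66% of all windows. An NF-kB core, searched as GGG, any 2 bases and TTTCC, was in none of the 7 windows and in 1.91% of all windows. The CD274 stretch is shown because CD274 was the only one of the 6 genes searched with the core. Beside it are the stretches of 3 antiviral interferon targets. These were picked from the interferon response genes because their windows hold the core, so that likeness to CD274 was fixed in advance. Capitals mark the bases of the ISRE core, which lies on the minus strand in each, so that it reads as its reverse complement. In CD274 the capitals cover both overlapping matches.
CD274, chr9:5450314-5450369, plus strand: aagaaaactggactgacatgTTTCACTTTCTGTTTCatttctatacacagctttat
IFIT1, chr10:89392487-89392549, plus strand: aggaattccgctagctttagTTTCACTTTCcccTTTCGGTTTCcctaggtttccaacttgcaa
IFIT3, chr10:89327821-89327904, plus strand: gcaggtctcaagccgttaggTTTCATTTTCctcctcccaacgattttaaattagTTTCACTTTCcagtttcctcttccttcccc
MX1, chr21:41431834-41431883, plus strand: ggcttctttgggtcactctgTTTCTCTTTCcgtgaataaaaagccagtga

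With siRNA-1, 6 of the 8 genes rose, NT5E fell and CD274 did not pass the test. With siRNA-2, 7 of the 8 rose and NT5E did not pass. IDO1 had the largest fitted change of the 8 with each siRNA, 3.86-fold with siRNA-1 and 7.80-fold with siRNA-2. NECTIN2 came next with siRNA-1 and PDCD1LG2 with siRNA-2, and the changes of CD276, CD47 and PVR were between 1.19-fold and 1.35-fold. The tests were edgeR's quasi-likelihood test with Benjamini-Hochberg adjustment over all 24902 genes at a threshold of 0.05. These counts stand against a broad response. Of all tested genes, 53.4% were called with siRNA-1, 28.6% as higher and 24.8% as lower, and 56.1% were called with siRNA-2, 29.9% as higher and 26.1% as lower. The median log2 fold change of the 8 was 0.38 with siRNA-1 and 0.42 with siRNA-2, where that of all tested genes was 0.01 in each comparison.

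**Figure D1:**
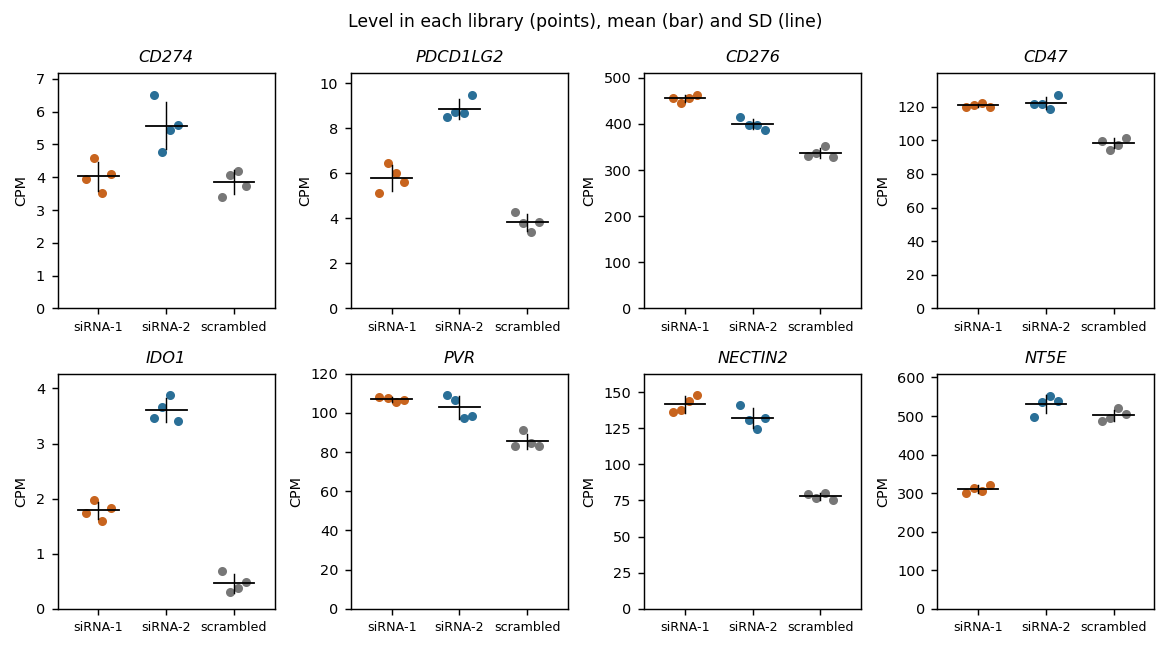
Level of each gene in CPM (vertical axes, from 0) in every library of siRNA-1, siRNA-2 and the scrambled siRNA (points, 4 per group), with the group mean (horizontal bar) and SD (vertical line). IDO1 lies between 1.59 and 1.98 CPM with siRNA-1, between 3.41 and 3.88 CPM with siRNA-2 and at 0.691 CPM or less with the scrambled siRNA, and NT5E is low with siRNA-1 alone.

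The libraries of siRNA-1 and the scrambled siRNA did not overlap in 7 of the 8 genes, 6 of them all higher and NT5E all lower, where 47.4% of all tested genes did not overlap, 25.2% all higher and 22.2% all lower. For siRNA-2 and the scrambled siRNA this held in 7 of the 8 genes, each all higher, where the share of all tested genes was 51.8%, 27.8% all higher and 24.1% all lower.

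Among the PD-1 ligands, CD274 lies on chromosome 9 from 5450060 to 5470567 on the plus strand (hg38, as for all positions of the deposited intervals). It had 3.94, 4.58, 3.52 and 4.11 CPM with siRNA-1, 6.52, 4.76, 5.43 and 5.60 CPM with siRNA-2, and 3.41, 4.07, 4.20 and 3.72 CPM with the scrambled siRNA. The siRNA-1 libraries overlapped the scrambled ones, and each siRNA-2 library was above all others. The log2 fold change was 0.07 with siRNA-1 (SE 0.11, adjusted p = 0.641, edgeR), with a 95% interval of -0.17 to 0.30. With siRNA-2 it was 0.53 (SE 0.11, adjusted p = 2.26e-04).

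PDCD1LG2 lies downstream on the same strand, from 5510438 to 5571282, starting 39870 bp past the end of the CD274 interval. It had 5.12, 6.48, 6.03 and 5.61 CPM with siRNA-1, 8.52, 8.73, 8.67 and 9.50 CPM with siRNA-2, and 4.30, 3.79, 3.38 and 3.83 CPM with the scrambled siRNA. The 3 groups did not overlap. PDCD1LG2 rose with siRNA-1 by 0.60 on the log2 scale (SE 0.10, adjusted p = 8.41e-06) and with siRNA-2 by 1.21 (SE 0.09, adjusted p = 4.07e-11). Both ligand genes lie in the interval of an antisense RNA, LOC107987045, which covers 18316 bp of CD274 and all of PDCD1LG2. That interval held 8395 counts over all libraries, where CD274 held 2559 and PDCD1LG2 held 3534. No source used here says whether the counting used strand, so reads of the ligand genes and of the antisense RNA cannot be told apart.

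The balance of the ligands was compared within each library as the ratio of their CPM per kb of exon. The intervals span whole genes, so reads outside exons may enter and the size of the ratio is approximate. PDCD1LG2 stood at 2.51 ± 0.318 times CD274 with siRNA-1, at 2.79 ± 0.388 times with siRNA-2 and at 1.75 ± 0.335 times with the scrambled siRNA (SD, n = 4 each). The log2 ratio was higher by 0.54 with siRNA-1 and by 0.68 with siRNA-2. Each difference had an exact permutation p of 0.0286, two-sided, which is the smallest that 4 against 4 libraries can give, and an adjusted p of 0.0429 over 6 ratio tests. Between siRNA-2 and siRNA-1 the log2 ratio differed by 0.15 (exact permutation p = 0.371, adjusted p = 0.371).

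CD276 encodes B7-H3, a B7 family protein with inhibitory effects on T cells, on chromosome 15 from 73683966 to 73715266, plus strand. It had 456, 445, 456 and 463 CPM with siRNA-1, 415, 398, 398 and 387 CPM with siRNA-2, and 331, 336, 352 and 328 CPM with the scrambled siRNA. The 3 groups did not overlap, with the siRNA-1 libraries highest. For CD276 the fitted log2 change was 0.43 with siRNA-1 (SE 0.04, adjusted p = 1.11e-10) and 0.25 with siRNA-2 (SE 0.04, adjusted p = 1.34e-06). Among all tested genes, 17.5% had a log2 fold change at least as high with siRNA-1 and 30.7% with siRNA-2.

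CD47 lies on chromosome 3 from 108035480 to 108094200, minus strand. Its levels were 120, 121, 122 and 120 CPM with siRNA-1, 121, 122, 119 and 127 CPM with siRNA-2, and 99.4, 94.5, 97.5 and 101 CPM with the scrambled siRNA. Every library of either siRNA was above every scrambled library, and the siRNA-1 and siRNA-2 libraries overlapped. The log2 fold change was 0.30 with siRNA-1 (SE 0.03, adjusted p = 6.72e-08) and 0.32 with siRNA-2 (SE 0.03, adjusted p = 2.15e-08). These are modest changes, since 24.7% of all tested genes were at least as high with siRNA-1 and 26.3% with siRNA-2.

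PVR and NECTIN2 lie on the plus strand of chromosome 19, PVR from 44643799 to 44666162 and NECTIN2 from 44846137 to 44889228, with 179974 bp between them. PVR had 108, 107, 105 and 106 CPM with siRNA-1, 109, 107, 97.4 and 98.6 CPM with siRNA-2, and 82.9, 91.1, 84.4 and 83.1 CPM with the scrambled siRNA. All libraries of either siRNA were above the scrambled ones. The log2 fold change of PVR was 0.32 with siRNA-1 (SE 0.04, adjusted p = 2.62e-07) and 0.27 with siRNA-2 (SE 0.04, adjusted p = 3.62e-06). The PVR interval lies inside that of an antisense RNA, CEACAM16-AS1, whose counts over all libraries were 101% of those of PVR, and reads of PVR and of the antisense RNA cannot be told apart.

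NECTIN2 had 136, 138, 144 and 148 CPM with siRNA-1, 141, 131, 124 and 132 CPM with siRNA-2, and 79.6, 76.6, 80.3 and 75.1 CPM with the scrambled siRNA. The lowest library of either siRNA was far above the highest scrambled one. NECTIN2 rose 1.81-fold with siRNA-1 (log2 fold change 0.86, SE 0.04, adjusted p = 5.3e-15) and 1.69-fold with siRNA-2 (log2 fold change 0.76, SE 0.04, adjusted p = 4.49e-14). Among all tested genes, 7.16% were at least as high with siRNA-1 and 10.3% with siRNA-2. Per kb of exon, NECTIN2 stood at 1.24 ± 0.0606 times PVR with siRNA-1, at 1.21 ± 0.042 times with siRNA-2 and at 0.859 ± 0.0515 times with the scrambled siRNA (SD, n = 4 each). On this scale NECTIN2 was above PVR in every library of either siRNA and below it in every scrambled library. The intervals span whole genes, so reads outside exons or of the antisense RNA may enter. Which of the 2 genes is the more abundant is therefore not settled. The log2 ratio was higher by 0.53 with siRNA-1 and by 0.49 with siRNA-2, each with an exact permutation p of 0.0286 and an adjusted p of 0.0429. Between siRNA-2 and siRNA-1 it differed by -0.04 (exact permutation p = 0.343, adjusted p = 0.371).

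**Figure D2:**
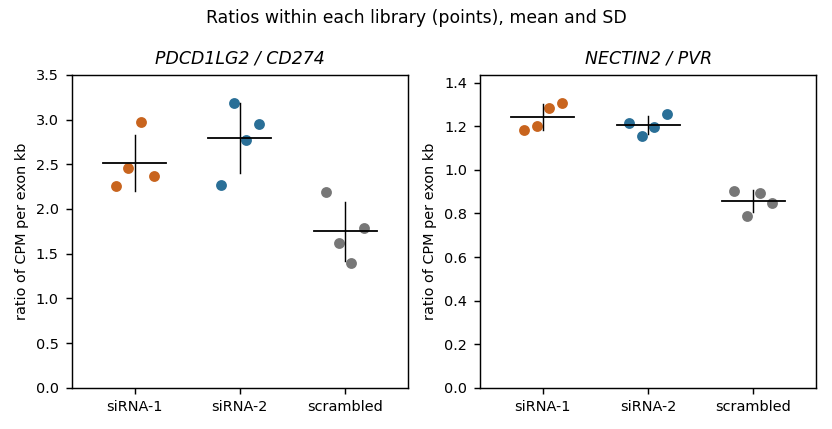
Ratio of CPM per kb of exon of PDCD1LG2 to CD274 and of NECTIN2 to PVR (vertical axes, from 0) in each library (points), with group mean (bar) and SD (line). The NECTIN2 ratio averages 1.24 with siRNA-1, 1.21 with siRNA-2 and 0.859 with the scrambled siRNA, and the PDCD1LG2 ratio averages 2.51, 2.79 and 1.75 in the same groups.

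IDO1, on chromosome 8 from 39902358 to 39928790 on the plus strand, had the lowest mean CPM of the 8 genes in each group. Its interval begins upstream of the RefSeq start of the gene. It held 68 to 94 counts a library with siRNA-1, 149 to 198 with siRNA-2 and 14 to 31 with the scrambled siRNA. This came to 1.73, 1.98, 1.59 and 1.83 CPM with siRNA-1, 3.47, 3.67, 3.88 and 3.41 CPM with siRNA-2, and 0.691, 0.301, 0.369 and 0.489 CPM with the scrambled siRNA. The 3 groups did not overlap. The log2 fold change was 1.95 with siRNA-1 (SE 0.19, adjusted p = 3.4e-09) and 2.96 with siRNA-2 (SE 0.18, adjusted p = 5.62e-13). Of all tested genes, 0.98% were at least as high with siRNA-1 and 0.373% with siRNA-2.

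NT5E lies on chromosome 6 from 85449585 to 85495791, plus strand. It had 299, 314, 307 and 322 CPM with siRNA-1, 497, 536, 552 and 540 CPM with siRNA-2, and 487, 495, 520 and 505 CPM with the scrambled siRNA. The siRNA-1 libraries were below all others, and the siRNA-2 libraries overlapped the scrambled ones. With siRNA-1 NT5E fell by 0.69 on the log2 scale (SE 0.04, adjusted p = 8.26e-14), to 0.619 of the scrambled level, and 6.84% of all tested genes had a log2 fold change at least as low. With siRNA-2 the log2 fold change was 0.08 (SE 0.04, adjusted p = 0.069), with a 95% interval of 0.00 to 0.16. That value passed the test without scrambled replicate 3 (adjusted p = 0.0453) and without siRNA-2 replicate 1 (adjusted p = 0.0284).

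**Figure D3:**
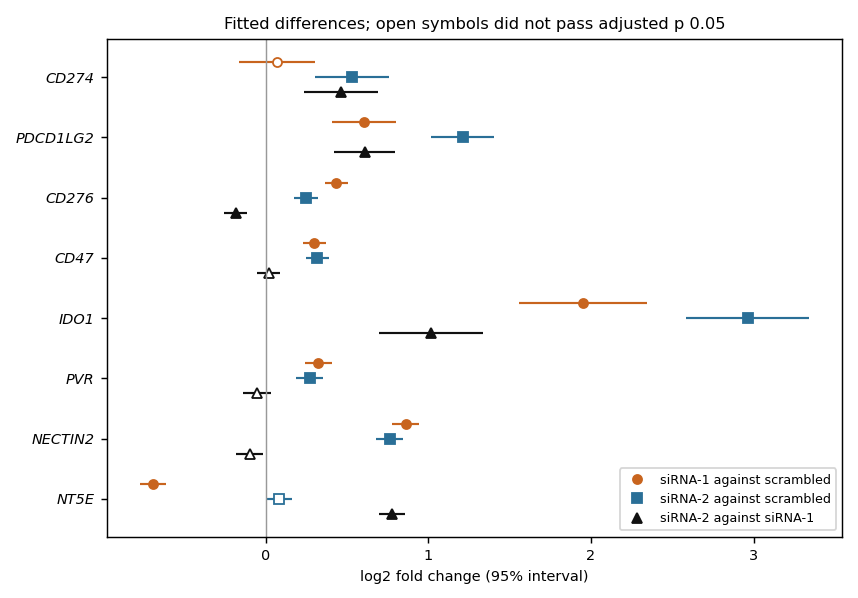
Fitted log2 fold change (horizontal axis) with its 95% interval for each gene in 3 comparisons, siRNA-1 against scrambled (circles), siRNA-2 against scrambled (squares) and siRNA-2 against siRNA-1 (triangles). Open symbols did not pass an adjusted p of 0.05. IDO1 is farthest right, at 1.95, 2.96 and 1.01, and NT5E has -0.69 with siRNA-1 and 0.08 with siRNA-2.

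The siRNAs share a named target, and they were also compared with each other. siRNA-2 gave higher levels than siRNA-1 of 4 of the 8 genes and a lower level of CD276. Of all tested genes, 32.6% were called in this comparison, 15.8% as higher and 16.8% as lower. IDO1 was 2.02-fold higher (log2 fold change 1.01, SE 0.16, adjusted p = 1.36e-05) and NT5E 1.71-fold higher (0.77, SE 0.04, adjusted p = 8.52e-14). PDCD1LG2 was 1.52-fold higher (0.61, SE 0.09, adjusted p = 9.79e-06) and CD274 1.38-fold higher (0.46, SE 0.11, adjusted p = 0.00211). CD276 was lower, with a difference of -0.19 (SE 0.04, adjusted p = 1.67e-04). In these 5 genes the libraries of the siRNAs did not overlap, where 31.9% of all tested genes did not overlap, 15.7% all higher and 16.3% all lower. CD47, PVR and NECTIN2 did not pass the test. Their log2 differences had 95% intervals, not adjusted for the number of genes, of -0.05 to 0.09 for CD47, -0.14 to 0.03 for PVR and -0.18 to -0.02 for NECTIN2 (adjusted p = 0.0632). NECTIN2 passed without siRNA-2 replicate 1 (adjusted p = 0.0211).

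Levels were set side by side between the genes per kb of exon (GENCODE v29). The intervals span whole genes, so reads outside exons and of overlapping genes may enter, to a degree that differs by gene. The order below is therefore approximate. In the scrambled libraries NT5E was highest, with a mean of 111 CPM per kb, followed by CD276 with 60.8, PVR with 24.3, NECTIN2 with 20.8, CD47 with 11.9, PDCD1LG2 with 1.62, CD274 with 0.937 and IDO1 with 0.142. The ranges of neighbours in this order did not overlap. With siRNA-1 the order changed at the top, CD276 having 82.1 and NT5E 68.5 CPM per kb, and NECTIN2 with 37.7 was above PVR with 30.4. With siRNA-2 NT5E had 117 and CD276 72.1 CPM per kb, and NECTIN2 with 35.2 was above PVR with 29.3. At the low end with siRNA-2, CD274 at 1.36 and IDO1 at 1.11 CPM per kb overlapped in their ranges, 1.16 to 1.59 for CD274 and 1.05 to 1.19 for IDO1. On this scale the metabolic enzyme IDO1 had a level near that of CD274 with siRNA-2 and well under it with the scrambled siRNA.

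IDO1, CD274 and PDCD1LG2 were set beside a list of 26 interferon response genes, of which 24 had a usable interval. The list was chosen with earlier results of these data known. Over all tested genes, 28.6% were higher with siRNA-1 and 29.9% with siRNA-2. All 24 genes of the list rose with siRNA-1 and with siRNA-2, with median log2 fold changes of 2.09 and 2.64. Among them, MX1, which blocks virus replication, had log2 fold changes of 0.87 (SE 0.07, adjusted p = 6.77e-09) with siRNA-1 and 1.15 (SE 0.07, adjusted p = 7.79e-11) with siRNA-2. ISG20, an antiviral exonuclease, had 2.48 (SE 0.12, adjusted p = 8.19e-09) with siRNA-1 and 2.95 (SE 0.12, adjusted p = 1.48e-09) with siRNA-2. Between siRNA-2 and siRNA-1, 15.8% of all tested genes were higher and 16.8% lower. Of the 24, 9 were higher, none lower and 15 did not pass, with a median of 0.39. The number higher was 19 without scrambled replicate 1 and 21 with only the 8 libraries of the siRNAs. The summed level of the 24 genes was 5173 to 5479 CPM with siRNA-1, 6629 to 7193 CPM with siRNA-2 and 923 to 2005 CPM with the scrambled siRNA. The value of 2005 CPM belongs to scrambled replicate 1, which was the highest scrambled library in 23 of the 24 genes and also in IDO1 and PDCD1LG2. It had the lowest CD274 level of the scrambled libraries. Without it, IDO1 had a log2 fold change of 2.18 with siRNA-1 and 3.197 with siRNA-2, and CD274 had -0.01 with siRNA-1 and 0.46 with siRNA-2.

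**Figure D4:**
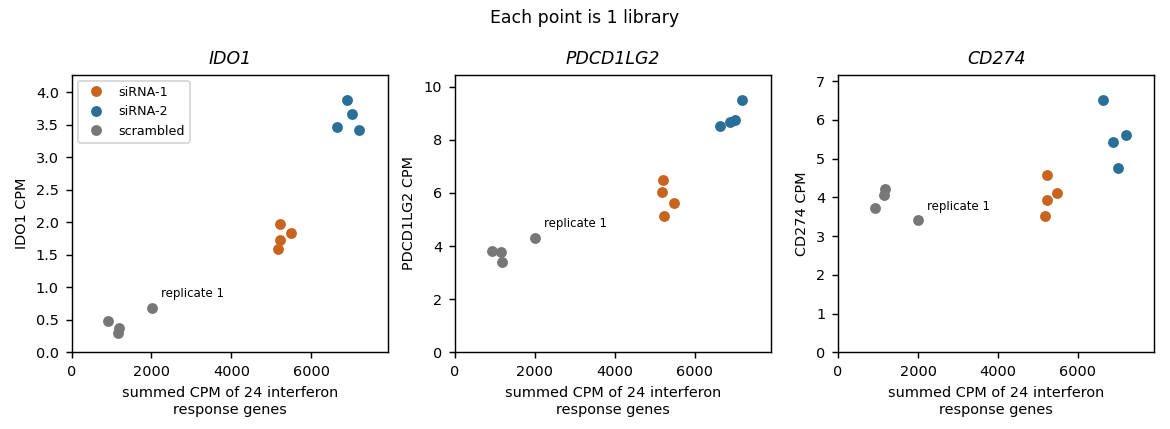
Level of IDO1, PDCD1LG2 and CD274 in CPM (vertical axes) against the summed CPM of 24 interferon response genes (horizontal axes), 1 point a library, coloured by group. The siRNA-2 libraries (6629 to 7193 summed CPM) lie at the top right in each panel, and the siRNA-1 libraries, at 5173 to 5479 summed CPM, stand above the scrambled ones for IDO1 and PDCD1LG2 and overlap them for CD274.

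Regulators of PD-L1 moved in both directions. Of 25 tested, 12 rose and 7 fell with siRNA-1 (median log2 fold change 0.17), and 13 rose and 7 fell with siRNA-2 (median 0.16). The shares over all tested genes were 28.6% higher and 24.8% lower with siRNA-1 and 29.9% higher and 26.1% lower with siRNA-2, so the number that fell was near the background. IRF1, the factor that binds the CD274 promoter after interferon gamma, had a log2 fold change of 0.07 with siRNA-1 (SE 0.05, adjusted p = 0.189) and rose by 0.26 with siRNA-2 (SE 0.05, adjusted p = 2.24e-05). CMTM6, which keeps PD-L1 protein from lysosomal breakdown, fell to 63.6 ± 0.94 CPM with siRNA-1 and 64.5 ± 1.71 CPM with siRNA-2, against 92.8 ± 7.58 CPM with the scrambled siRNA (SD, n = 4 each). Its log2 fold changes were -0.55 with siRNA-1 (adjusted p = 1.97e-10) and -0.53 with siRNA-2 (adjusted p = 2.99e-10). Its relative CMTM4 also fell, by 0.44 with siRNA-1 and by 0.40 with siRNA-2 on the log2 scale (adjusted p = 2.23e-10 and 9.31e-10), in an interval that overlaps CMTM3. USP22, a deubiquitinase that stabilises PD-L1, fell by 0.50 with siRNA-1 and by 0.68 with siRNA-2 (adjusted p = 5.96e-11 and 1.74e-13). JAK2, one of the kinases of the interferon gamma receptor, rose by 0.26 with siRNA-1 and by 0.20 with siRNA-2 (adjusted p = 0.00119 and 0.0073). JAK1, also on the list, had 0.03 with siRNA-1 and -0.07 with siRNA-2 (adjusted p = 0.571 and 0.107). JUN rose by 0.77 with siRNA-1 and by 0.83 with siRNA-2 (adjusted p = 1.01e-12 and 2.39e-13). HIF1A, the hypoxia factor, rose by 0.82 with siRNA-1 and by 0.52 with siRNA-2 (adjusted p = 2.78e-14 and 9.39e-11). The JAK2 and HIF1A intervals overlap noncoding RNA genes that hold 88.9% and 90.8% as many counts.

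The CD47 and thrombospondin list had 12 tested genes, of which 6 rose with siRNA-1 and 7 with siRNA-2, with none called lower (median log2 fold change 0.14 and 0.27). Over all tested genes 28.6% were higher with siRNA-1 and 29.9% with siRNA-2. The siRNA-1 count was 3 without the filter on low counts, with protein-coding intervals only or without siRNA-1 replicate 3. THBS2, a secreted thrombospondin, had 625 ± 44.8 CPM with siRNA-1, 1187 ± 29.4 CPM with siRNA-2 and 358 ± 17.5 CPM with the scrambled siRNA (SD, n = 4 each), with log2 fold changes of 0.80 with siRNA-1 and 1.73 with siRNA-2 (SE 0.05 each, adjusted p = 1.56e-13 and 2.87e-19). Its interval overlaps a noncoding RNA gene, LOC101929523, with 85.2% as many counts. THBS1, a ligand of CD47, had 0.12 with siRNA-1 (adjusted p = 0.0752) and rose by 0.21 with siRNA-2 (adjusted p = 0.00185). SIRPA, the receptor of CD47, was itself detected, at 36.4 ± 1.04 CPM with siRNA-1, 49.5 ± 1.71 CPM with siRNA-2 and 28.7 ± 2.68 CPM with the scrambled siRNA. It rose by 0.34 with siRNA-1 and by 0.78 with siRNA-2 on the log2 scale (adjusted p = 7.71e-06 and 3.54e-12). CALR, calreticulin, a signal for phagocytosis at the cell surface, rose by 0.12 with siRNA-1 and by 0.36 with siRNA-2 (adjusted p = 0.0147 and 2.37e-08). The siRNA-1 call of CALR was lost without siRNA-1 replicate 1 (adjusted p = 0.122), siRNA-1 replicate 3 (0.0542), siRNA-1 replicate 4 (0.051) or scrambled replicate 4 (0.056). QPCTL, which modifies the CD47 protein for SIRPA binding, had -0.15 with siRNA-1 and -0.10 with siRNA-2 (adjusted p = 0.192 and 0.392), in an interval that overlaps the far more abundant SNRPD2.

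Genes of tryptophan and kynurenine metabolism had 16 tested members, with 7 higher and 7 lower with siRNA-1 (median log2 fold change -0.07) and 6 higher and 7 lower with siRNA-2 (median -0.01), beside the background of 28.6% higher and 24.8% lower with siRNA-1 and 29.9% higher and 26.1% lower with siRNA-2. WARS1, the tryptophan-tRNA ligase, had 113 ± 5.15 CPM with siRNA-1, 137 ± 7.12 CPM with siRNA-2 and 64.5 ± 1.92 CPM with the scrambled siRNA. It rose by 0.81 with siRNA-1 and by 1.08 with siRNA-2 (adjusted p = 2.11e-14 and 9.29e-17). KYNU, kynureninase, which acts on the product of IDO1, had 0.986 ± 0.346 CPM with siRNA-1, 0.880 ± 0.145 CPM with siRNA-2 and 1.51 ± 0.215 CPM with the scrambled siRNA. It fell by 0.61 with siRNA-1 and by 0.77 with siRNA-2 (adjusted p = 0.0199 and 0.00373), and the siRNA-1 call was lost without scrambled replicate 1 (adjusted p = 0.0513), without siRNA-1 replicate 1 (adjusted p = 0.0739) or without siRNA-1 replicate 4 (adjusted p = 0.0702). QPRT, which turns quinolinate into an NAD precursor, rose by 0.46 with siRNA-1 and by 0.36 with siRNA-2 (adjusted p = 5.46e-10 and 3.69e-08). TIPARP, a target of the aryl hydrocarbon receptor that kynurenine can activate, rose by 0.20 with siRNA-1 and by 0.51 with siRNA-2 (adjusted p = 9.58e-04 and 6.22e-10). CYP1B1, another target of that receptor, named after its values were seen, fell by 1.31 with siRNA-1 and by 1.17 with siRNA-2 (adjusted p = 2.9e-06 and 9.71e-06), in an interval that overlaps CYP1B1-AS1 and RMDN2. IL4I1, an amino acid oxidase that also uses tryptophan, rose by 0.59 with siRNA-1 and by 0.90 with siRNA-2 (adjusted p = 7.21e-12 and 2.4e-15), in an interval shared with NUP62, ATF5 and TBC1D17. TDO2 was not analysed here.

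The adenosine list around NT5E had 17 tested genes, with 6 higher and 4 lower with siRNA-1 (median log2 fold change 0.20) and 5 higher and 5 lower with siRNA-2 (median 0.07). These counts were near the background of 28.6% higher and 24.8% lower with siRNA-1 and 29.9% higher and 26.1% lower with siRNA-2 over all tested genes. ENPP1, an enzyme that makes AMP from extracellular ATP, fell to 9.23 ± 1.17 CPM with siRNA-1 and 8.50 ± 1.29 CPM with siRNA-2, against 30.2 ± 1.71 CPM with the scrambled siRNA (SD, n = 4 each). Its log2 fold change was -1.71 with siRNA-1 and -1.82 with siRNA-2 (SE 0.10 each, adjusted p = 1.65e-10 and 5.84e-11). ENTPD1 (CD39), which also makes AMP, had -0.10 with siRNA-1 and -0.14 with siRNA-2 (adjusted p = 0.211 and 0.0575), in an interval that an antisense RNA overlaps. PANX1, a channel for ATP release, fell by 0.67 with siRNA-1 and by 0.79 with siRNA-2 (adjusted p = 1.93e-12 and 9.12e-14). Among the receptors, ADORA2B rose by 0.37 with siRNA-1 and by 0.80 with siRNA-2 (adjusted p = 9.46e-05 and 2.99e-10). ADORA1 had 73.2 ± 2.72 CPM with siRNA-1, 45.7 ± 0.933 CPM with siRNA-2 and 43.6 ± 2.35 CPM with the scrambled siRNA. It rose by 0.75 with siRNA-1 (adjusted p = 1.91e-13) and had 0.07 with siRNA-2 (adjusted p = 0.197), and the siRNAs differed by -0.68 (siRNA-2 against siRNA-1, adjusted p = 7.16e-12). P2RX4, an ATP-gated channel, rose by 0.76 with siRNA-1 and by 0.87 with siRNA-2 (adjusted p = 6.09e-10 and 3.49e-11), in an interval that overlaps a noncoding RNA gene with 63.8% as many counts.

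**Figure D5:**
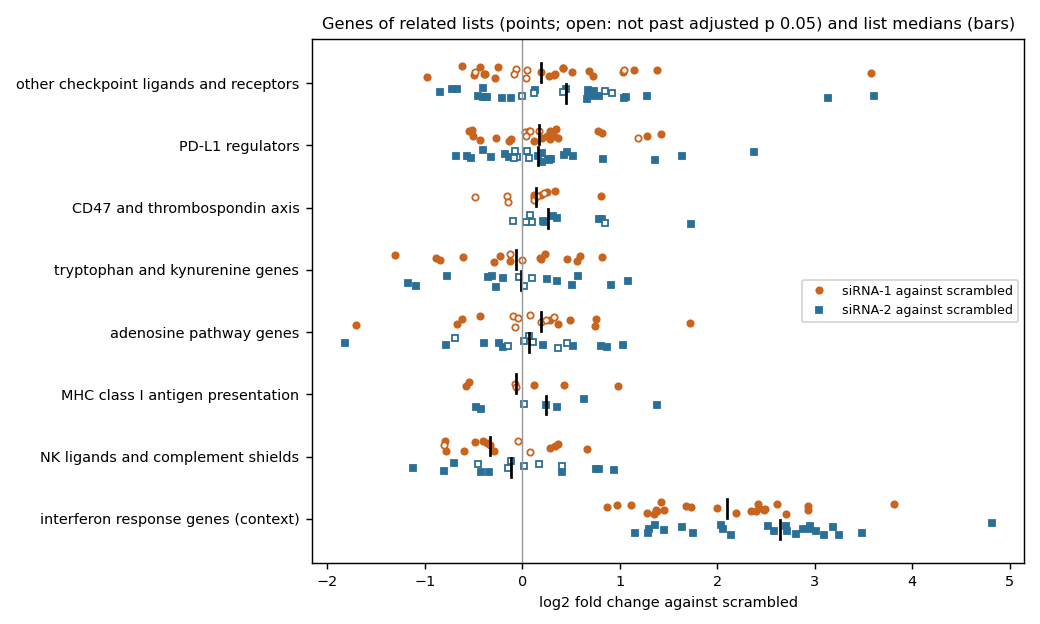
Log2 fold change against the scrambled siRNA (horizontal axis) of each tested gene of 8 related lists (rows), with siRNA-1 (circles) and siRNA-2 (squares). Filled symbols passed an adjusted p of 0.05, and black bars are list medians, which lie at 2.09 and 2.64 for the interferon response genes and between -0.33 and 0.45 for the other lists.

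Of 27 other checkpoint ligands and receptors tested, 13 rose and 8 fell with siRNA-1 (median log2 fold change 0.19), and 13 rose and 9 fell with siRNA-2 (median 0.45), where the background was 28.6% higher and 24.8% lower with siRNA-1 and 29.9% higher and 26.1% lower with siRNA-2. TNFSF4 (OX40 ligand), which co-stimulates T cells, had 117 ± 3.87 CPM with siRNA-1, 116 ± 3.65 CPM with siRNA-2 and 70.8 ± 3.87 CPM with the scrambled siRNA (SD, n = 4 each), with log2 fold changes of 0.73 with siRNA-1 and 0.72 with siRNA-2 (adjusted p = 9.76e-14 and 1.11e-13). The butyrophilins BTN3A1, BTN3A2 and BTN3A3, which take part in phosphoantigen sensing by gamma delta T cells, rose by 0.32, 0.42 and 0.69 with siRNA-1 and by 0.67, 0.73 and 1.06 with siRNA-2, and their intervals overlap one another. NECTIN3, a binding partner of NECTIN2 and PVR in cell adhesion, fell to 38.2 ± 1.99 CPM with siRNA-1 and 40.8 ± 2.40 CPM with siRNA-2, against 54.0 ± 4.93 CPM with the scrambled siRNA. Its log2 fold changes were -0.50 with siRNA-1 (adjusted p = 1.72e-07) and -0.41 with siRNA-2 (adjusted p = 2.77e-06). LGALS9, named after its values were seen, had the largest rise of the list with each siRNA. It had 107 ± 5.16 CPM with siRNA-1, 109 ± 5.95 CPM with siRNA-2 and 9.01 ± 3.25 CPM with the scrambled siRNA. The log2 fold changes of LGALS9 were 3.57 with siRNA-1 and 3.60 with siRNA-2 (adjusted p = 9.32e-08 and 7.45e-08). Of the 27 genes, 11 were higher and 5 lower with siRNA-2 than with siRNA-1, where 15.8% of all tested genes were higher and 16.8% lower.

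For MHC class I antigen presentation, 7 of 22 listed genes were tested, and the HLA class I genes and B2M were not analysed here. With siRNA-1 3 were higher and 2 lower (median log2 fold change -0.06), and with siRNA-2 4 were higher and 2 lower (median 0.24). Over all tested genes the shares were 28.6% higher and 24.8% lower with siRNA-1 and 29.9% higher and 26.1% lower with siRNA-2, and the number lower was near them. NLRC5, the transactivator of MHC class I genes, rose by 0.98 with siRNA-1 and by 1.38 with siRNA-2 (adjusted p = 3.09e-13 and 4.09e-16), and PSMB10, an immunoproteasome subunit, by 0.43 with siRNA-1 and by 0.64 with siRNA-2 (adjusted p = 1.11e-07 and 7.08e-11). The peptide-trimming enzymes ERAP1 and ERAP2, whose intervals overlap each other, fell by 0.55 and 0.58 with siRNA-1 and by 0.42 and 0.47 with siRNA-2. Of 15 natural killer cell ligands and shields against lysis, 4 rose and 8 fell with siRNA-1 (median -0.33), and 4 rose and 5 fell with siRNA-2 (median -0.12), beside the same background. ULBP2, a ligand of the activating receptor NKG2D, rose by 0.66 with siRNA-1 and by 0.94 with siRNA-2 (adjusted p = 4.18e-08 and 5.07e-11). Other ligands of that receptor, named after their values were seen, went both ways. ULBP1 rose by 0.37 with siRNA-1 and 0.79 with siRNA-2, and RAET1E fell by 0.78 with siRNA-1 and 0.80 with siRNA-2. ULBP3 and RAET1G fell by 0.40 and 0.60 with siRNA-1 and did not pass with siRNA-2, and RAET1L passed with neither. The RAET1E and RAET1G intervals overlap RAET1E-AS1, which held far more counts. Of 3 complement shields on the list, 1 rose and 2 fell. CD55 rose by 0.29 with siRNA-1 and by 0.76 with siRNA-2 (adjusted p = 7.26e-06 and 2.68e-13), and CD59 fell by 0.49 with siRNA-1 and by 0.34 with siRNA-2 (adjusted p = 5.17e-10 and 1.97e-07). CD46, named after its values were seen, fell by 0.33 with siRNA-1 and by 0.70 with siRNA-2 (adjusted p = 1.93e-04 and 4.88e-08). CFLAR, an inhibitor of death receptor signalling, rose by 0.34 with siRNA-1 and by 0.41 with siRNA-2 (adjusted p = 1.1e-07 and 3.11e-09).

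The genes that lie next to these members on the chromosome were also read. Within 250000 bp of CD274 and PDCD1LG2, 4 other protein-coding genes were tested, of which 1 was higher and 2 were lower with siRNA-1, and none was higher and 3 were lower with siRNA-2. The background over all tested genes was 28.6% higher and 24.8% lower with siRNA-1 and 29.9% higher and 26.1% lower with siRNA-2. PLGRKT, the plasminogen receptor gene and the nearest of the 4 to CD274, had log2 fold changes of -0.47 with siRNA-1 and -0.44 with siRNA-2 (adjusted p = 5.51e-05 and 9.52e-05). Another of the 4, LOC107987017, lies inside the PLGRKT interval and had -0.52 with siRNA-1 and -0.46 with siRNA-2. Both were called lower with each siRNA, and these calls may rest on the same reads. Around PVR and NECTIN2, 9 of 13 protein-coding genes were higher with siRNA-1 and 8 of 13 with siRNA-2, and none was called lower with either, beside the same background. BCAM, a laminin-binding adhesion molecule between PVR and NECTIN2, rose by 0.82 with siRNA-1 and by 0.71 with siRNA-2 (adjusted p = 2.46e-13 and 3.08e-12). CLPTM1, downstream of NECTIN2, rose by 0.51 with siRNA-1 and by 0.46 with siRNA-2 (adjusted p = 1.08e-10 and 6.19e-10). These neighbours were named after their values were seen.

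The genes with the most alike pattern over the 12 libraries were taken by Pearson's r of log2 CPM among 12373 protein-coding genes, as a description, since the libraries of a group share their treatment. For IDO1 these were ADAMTSL4 (r = 0.994) and CNPY4 (r = 0.993). For PDCD1LG2 they were HEXIM1 (r = 0.987) and PTK2B (r = 0.986), and for CD274 they were CCDC137 (r = 0.943) and SOX15 (r = 0.932). CD276 was most like SCARB1 (r = 0.997) and JMJD6 (r = 0.992), and CD47 was most like CPT1C (r = 0.993) and ESS2 (r = 0.989). For PVR they were RELT (r = 0.985) and LOC107987269 (r = 0.977), and for NECTIN2 they were MOGS (r = 0.997) and TMEM115 (r = 0.996). NT5E was most like FOXM1 (r = 0.990), a factor of the cell division programme, and DAB2 (r = 0.986), an endocytic adaptor. FOXM1 had log2 fold changes of -0.42 with siRNA-1 and 0.08 with siRNA-2 (adjusted p = 1.18e-09 and 0.0742).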

How the data were processed

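Total RNA of 12 A172 samples was sequenced. Per the labels the groups are siRNA-1, siRNA-2 and scrambled, with 4 samples each. The deposited table holds raw read counts for 49731 intervals, made by the authors. The submitters' processing notes name Salmon and hg38, and no source used here gives the strand setting. Intervals cover whole gene spans, so overlapping genes can share reads.

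Of the intervals, 44787 were used. Left out were 962 that are not genes, 31 of ribosomal RNA, 1980 that reach more than 100 kb beyond the named gene, 1090 under an older name and 750 with the same counts as another interval (summed count at least 15) as well as 22 copies on chromosome Y, 28 with a number for a name, 11 longer intervals of a repeated name and 70 unmatched ones over 1 Mb. edgeR 4.0.16 in R 4.3.3 fitted all 12 libraries together by group (TMM, filterByExpr, robust quasi-likelihood test, two-sided), with Benjamini-Hochberg adjustment over 24902 genes. CPM use TMM-scaled totals. Standard errors are the log2 fold change over the root of F. The text gives all 8 members, of each list up to 4 genes with the smallest p, direct partners, and the 2 genes most like each member (log2 CPM with a pseudocount of 0.1, average at least 1). A gene so named is not reported here. Members and lists were chosen with earlier results of these data known. In data simulated for siRNA-1 against scrambled, drawn from the scrambled means with a smooth trend of the spread, 24157 genes were tested. The edgeR test called 91 of 100 genes changed 1.5-fold, 48 of 50 changed 2-fold and 50 of 50 changed 4-fold. Of 23957 unchanged genes it called 7. Low genes were not among those changed, and far fewer genes were changed than were called in the data. These rates may therefore not carry over to the data. Alternatives were DESeq2 1.42.0, its size factors, other filters, protein-coding genes only, 8 libraries only, a replicate block and leaving out each library.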

Additional observations from a re-analysis of the deposited data

Results flagged for a closer look

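Of the 8 genes, 5 had an effect of siRNA-2 that differed from the effect of siRNA-1 against the same scrambled libraries, tested as siRNA-2 against siRNA-1 in edgeR. The log2 difference was 1.01 for IDO1, 0.77 for NT5E, 0.61 for PDCD1LG2, 0.46 for CD274 and -0.19 for CD276. NT5E is the one of the 5 that passed the test with siRNA-1 as lower (log2 fold change -0.69) and did not pass with siRNA-2 (0.08). CD274 did not pass with siRNA-1 (0.07) and rose with siRNA-2 (0.53). Of all tested genes, 32.6% were called in this comparison. In 30 groups of 4 libraries, over the 8 genes and the 2 ratios, no sample stood apart from the others by Dixon's criterion.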

How the results depend on the processing

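Over 19 alternatives, 7 of the 8 genes were called with siRNA-1 in each. With siRNA-2 the count was 7, and 8 without scrambled replicate 3 or without siRNA-2 replicate 1, when NT5E passed. Between siRNA-2 and siRNA-1 the count was 5, and 6 without siRNA-2 replicate 1, when NECTIN2 passed. The number of the 8 genes called lower between the siRNAs ranged from 1 to 2 when a library was left out. With protein-coding intervals only, 4705 genes were called higher with siRNA-1, against 7114 over all intervals, and 4959 with siRNA-2, against 7455, fewer genes being tested. Differences near 0 changed sign. CD274 with siRNA-1 ranged from -0.023 to 0.12 (log2) when a library was left out, and was -0.008 without scrambled replicate 1. For siRNA-2 against siRNA-1 the same range was -0.0025 to 0.031 for CD47, -0.32 to 0.057 for KYNU and -0.027 to 0.011 for TNFSF4, which had 0.0027 with a filter of 1 CPM and 0.0013 with protein-coding intervals only. None of these passed the test, and the cause was not tested. IDO1 ranged from 1.79 to 2.18 with siRNA-1 and from 2.81 to 3.197 with siRNA-2.

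Samples with the same replicate number deviated together with correlations of -0.129 to 0.110, and those with different numbers with -0.225 to 0.153. No pairing by number was therefore visible, though a weak shared effect could be missed this way. With a replicate block 13193 genes were called with siRNA-1, 13916 with siRNA-2 and 8024 between the siRNAs, against 13297, 13965 and 8112 without it, and the 8 genes kept their calls, with an adjusted p of 0.0578 for NT5E with siRNA-2. Of 2394 values of the other named genes, 24 lost and 21 gained a call. Depth limits IDO1 most, with 14 to 31 counts in a scrambled library. Of 912 counts over the related lists, 28 moved by more than 1.5 times, 25 of them between siRNA-2 and siRNA-1.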
